A study of Mus musculus with 6 samples.

Results

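The genes described here encode the degradative machinery of the lysosome, read in RNA of sorted Kupffer cells, the macrophages that reside in the liver's sinusoids. The set was defined by annotation and by name, by a rule that names no measured value but was written with earlier results of these data known: protein-coding genes whose symbol marks a subunit or an accessory protein of the vacuolar proton pump (26 genes), together with 34 named hydrolases, membrane proteins, cofactors and transcription factors, 1 of which, Atp6v0d2, also belongs to the pump. It holds 59 of the 54532 genes in the deposited count table, of which 22046 are protein-coding. The 59 genes are 20 hydrolases, 25 pump subunits and accessory proteins, 10 membrane and cofactor proteins, the 3 TFEB family factors and Atp6v1fnb, a neighbour gene of the pump subunit Atp6v1f that was given no class. Trem2-deficient mice (Trem2_KO, 3 libraries) were set against wild-type littermates (WT, 3 libraries). Both groups were male, were 8 weeks old when a high fat diet began, and stayed on that diet for 8 weeks, so no group on a normal diet enters these values. TREM2 is a lipid-sensing surface receptor of macrophages. The sources used here give neither the deleted region of Trem2 nor the background strain.

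Lysosomes break down what a macrophage takes up. Their lumen holds acid hydrolases: cathepsins cut proteins, glycosidases trim sugars from glycoproteins and glycolipids, and lipases, ceramidases and sphingomyelinases cut lipids. The acid is made by the vacuolar proton pump, in which the cytosolic V1 sector hydrolyses ATP and turns a rotor that moves protons through the membrane-bound V0 sector. The transcription factors TFEB, TFE3 and MITF bind the E-box CACGTG, in particular within the longer form TCACGTGA, in promoters of many lysosomal genes, and are held in the cytosol by phosphorylation when nutrients are plentiful, so their transcript level need not follow their activity.

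The promoters of this set held that element more often than promoters in general, and the stretches below are shown because they carry it in genes whose transcript levels are compared later. Promoters from RefSeq (GRCm38.p6, 250 bases before to 50 bases after each start site) were found for 48 of the 59 genes, as 59 promoters. Asah1, Atp6ap1l, Atp6v0a2, Atp6v0d2, Atp6v1b2, Atp6v1c1, Atp6v1g1, Atp6v1h, Ctsb, Ctsh and Npc1 had no entry. The capitals mark CACGTG, and each sequence runs 5′ to 3′ on the strand of its gene. Gla and Lamp1 are shown with all their copies, the others with 1 copy each.
Gla: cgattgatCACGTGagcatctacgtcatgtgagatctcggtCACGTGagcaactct
Lamp1: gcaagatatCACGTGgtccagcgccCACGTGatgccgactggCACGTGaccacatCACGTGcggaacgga
Mcoln1: caggcgccccgctCACGTGaccgcggcgca
Ctsd: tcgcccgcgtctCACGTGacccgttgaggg
Ctsa: atgagcaaactgtCACGTGatgcag
Atp6v1a: tttttttttaaatCACGTGataggcttaac
Atp6v0d1: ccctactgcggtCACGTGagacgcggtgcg
The Gla stretch lies at chrX:134601185-134601240 on the minus strand, that of Lamp1 at chr8:13159091-13159160 on the plus strand, and that of Mcoln1 at chr8:3500461-3500490 on the plus strand. Ctsd is shown at chr7:142387908-142387937 on the minus strand and Ctsa at chr2:164833748-164833772 on the plus strand. The pump genes Atp6v1a and Atp6v0d1 are shown at chr16:44139374-44139403 and chr8:105566050-105566079, both on the minus strand.

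CACGTG and TCACGTGA read the same on both strands, and every match of the longer motif also counts for the shorter. The shorter CACGTG was present in 13 of the 48 genes, or 22% of their 59 promoters, against 7.15% of all 32851 promoters in the table. The longer TCACGTGA was present in 8 of the 48 genes, or 13.6% of their promoters, against 0.974% of all promoters. Lamp1, which encodes one of the abundant glycoproteins of the lysosomal membrane, had 4 copies of CACGTG within its promoter and 0 of the longer form. Gla, the alpha-galactosidase that removes terminal galactose from glycolipids, had 2 copies of the longer form, and so did Ctsa, the protective protein of the galactosidase complex. By the test described below, 2 of the 13 genes with CACGTG were called higher in Trem2_KO, 3 were called lower and 8 were not called. Of the 8 with TCACGTGA, 2 were higher (Gla and Mcoln1), 2 were lower (Ctsd and Atp6v0d1) and 4 were not called. Over all tested genes 15.3% were called higher and 15.1% lower, and a difference of the genes with an E-box from these shares was not tested. These matches describe the letters of the reference sequence, and binding was not measured.

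**Figure D1:**
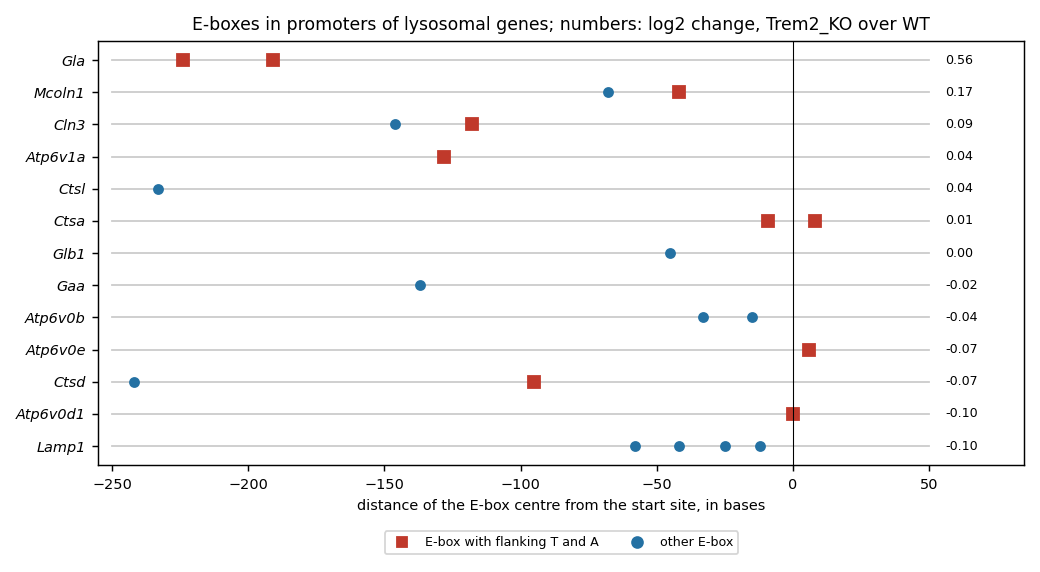
E-boxes in the RefSeq promoters of the 13 lysosomal genes that hold one, ordered down the page by log2 change, Trem2_KO over WT (numbers at the right), with the distance of the E-box centre from the start site, in bases, along the bottom; red squares are E-boxes within the longer form and blue circles the others. Gla at 0.56 has 2 of the longer form and Lamp1 at -0.10 has 4 of the others; genes without an E-box are not drawn.

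Total counts were 16347967 to 17135603 per library in Trem2_KO and 15799351 to 15893041 in WT, and a count of 3, the limit that a count of 0 allows, was 0.173 to 0.182 CPM in Trem2_KO and 0.191 to 0.192 CPM in WT (counting error only). Trem2 itself was read at 16.6, 17.3 and 14.5 CPM in Trem2_KO and at 84.7, 90.0 and 84.2 CPM in WT, in the direction of the labels in every library (log2 change -2.42, SE 0.0641, edgeR adjusted p = 1.6e-35). CPM are read counts scaled to library size with TMM factors, and FPKM are the authors' length-scaled values. A call means an adjusted p (Benjamini-Hochberg, all 13776 tested genes) under 0.05 in edgeR's quasi-likelihood test, with 3 libraries per group throughout, and every adjusted p below is from that test unless another is named. The labels do not tie each library to a mouse of its own, so a p-value measures the spread between these samples, and that spread may be technical. The common biological coefficient of variation was 0.0378, so that changes of a few percent could be called. The defining Kupffer cell markers were abundant: Clec4f averaged 11181 CPM in Trem2_KO and 12312 CPM in WT.

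The lysosomal set as a whole changed by little, and its abundant members were called lower more often than higher. Of the 59 genes, 52 passed the filter on low counts; 5 of these were higher in Trem2_KO, 17 were lower and 30 were not called. Over all tested genes, 30.3% were called, 15.3% higher and 15.1% lower, whereas 9.62% of the 52 were higher and 32.7% were lower. Most of the 52 are highly expressed, with a median of 204 CPM against 18.1 CPM over all tested genes, and calls depend on level. Among all genes with a mean of at least 100 CPM, a threshold chosen after the data were seen, 27.0% were called higher and 32.0% lower. Of the 39 lysosomal genes above that threshold, 1 (2.56%) was higher and 15 (38.5%) were lower, so the share of lower calls lay near that of other abundant genes and the share of higher calls lay below it. The median log2 change was -0.03 for the set and -0.01 for all tested genes. The 17 falls spanned -0.07 to -0.22 on the log2 scale, and only Gla and Atp6v0d2 were called with a change of at least 0.25. The Trem2_KO and WT libraries did not overlap for 29 of the 52 genes (55.8%), against 41.6% of all tested genes. That comparison does not account for level, and the share among genes of similar level was not computed. With scaling to total counts in place of TMM the set had 8 genes higher and 13 lower, and the share of higher calls over all genes was 61.2% against 50.3% with TMM. The small changes rest on the low spread between these libraries: at a biological coefficient of variation of 0.2 for every gene, 1 of the 22 called members, Atp6v0d2, was still called.

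**Figure D2:**
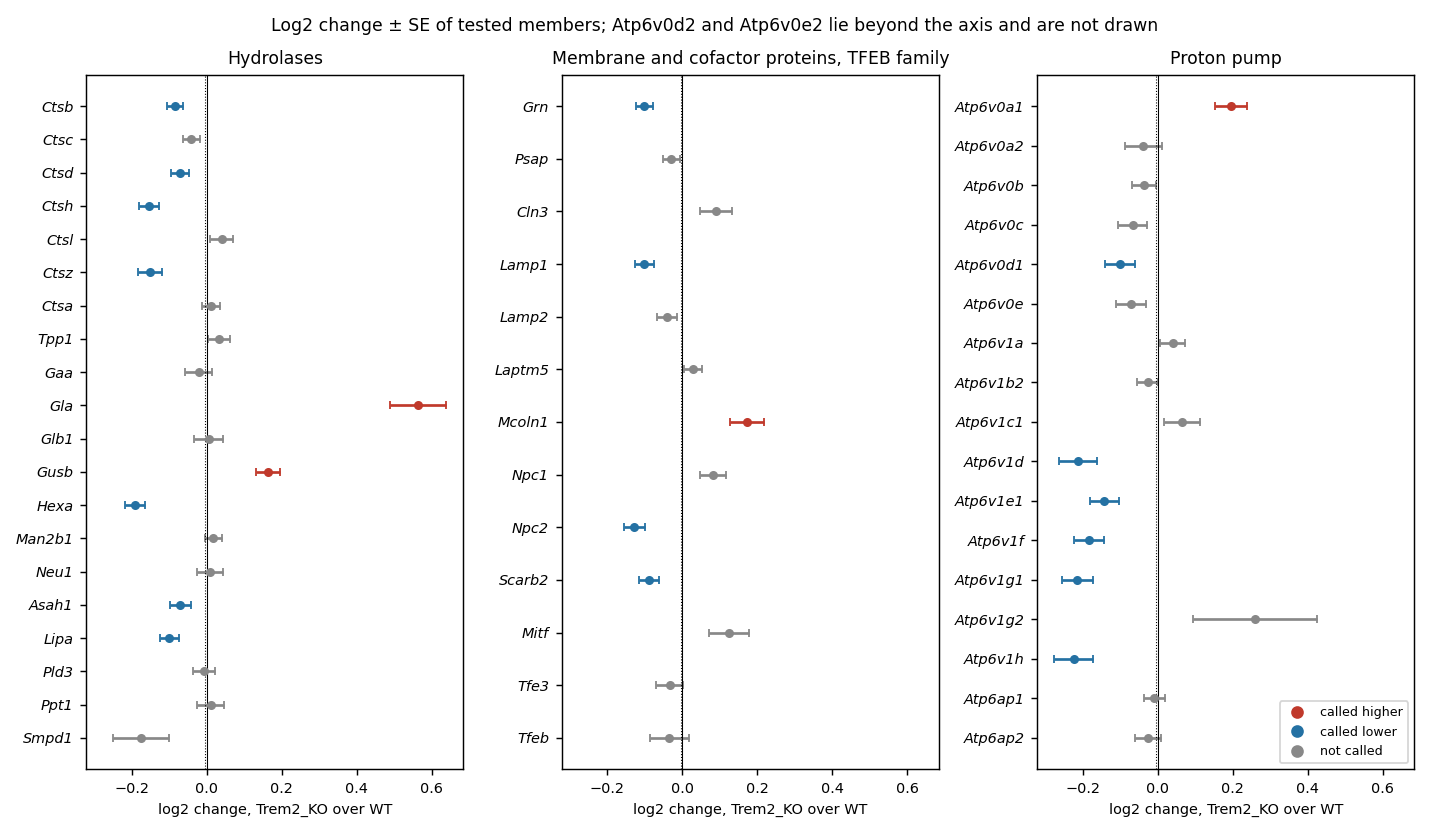
Log2 change of the tested lysosomal genes, Trem2_KO over WT, by class, with bars of 1 standard error either side, red for genes called higher, blue for genes called lower and grey for those not called; the dotted line is the median of all tested genes, and Atp6v0d2 (2.90) and Atp6v0e2 (-0.61) lie beyond the axis. Gla at 0.56 stands away from the others drawn, and the called falls lie between -0.07 and -0.22.

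Markers of the sorted cell type moved alongside these falls. For the marker counts below, the shares over all tested genes were 15.3% higher and 15.1% lower. Among genes of at least 100 CPM they were 27.0% and 32.0%. Of 18 resident Kupffer cell markers 15 were lower and 0 were higher in Trem2_KO (0 also at an unadjusted p under 0.05, by DESeq2 and by limma-voom), and their summed level was 46978 to 47309 CPM in Trem2_KO and 53017 to 53950 CPM in WT. Of 17 sinusoidal endothelial markers 13 were higher and 2 lower, with sums of 2086 to 2104 CPM in Trem2_KO and 2112 to 2130 CPM in WT, and of 22 hepatocyte markers 6 were higher and 10 lower, with sums of 1817 to 1842 CPM in Trem2_KO and 2060 to 2120 CPM in WT. Of 15 tested recruited monocyte markers 6 were higher and 2 lower, with sums of 2443 to 2483 CPM in Trem2_KO and 2336 to 2363 CPM in WT. Stellate cell markers summed to 263 to 267 CPM in Trem2_KO and 215 to 223 CPM in WT (3 of 11 tested higher, 0 lower, and 0 lower by DESeq2, with 1 at an unadjusted p under 0.05). Each remaining marker list summed to at most 210.5 CPM in any library: neutrophils (1 higher and 1 lower of 5 tested), B and plasma cells (0 and 2 of 6), dendritic cells (1 and 2 of 8), erythroid cells and platelets (2 and 0 of 7), and T and NK cells (1 and 0 of 4). The neutrophil marker Ly6g was at 0 reads in all 6 libraries. In bulk RNA, fewer cells of a type and less RNA per cell cannot be told apart, and the part of these shifts in the lysosomal values was not tested.

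Among the 20 hydrolases, all of them tested, 2 were higher in Trem2_KO, 7 were lower and 11 were not called, with a median log2 change of -0.01. That is 10% higher and 35% lower, against 15.3% and 15.1% of all tested genes. Among all genes of at least 100 CPM, a level that not all 20 reach, 27.0% were higher and 32.0% lower. The same background shares stand beside the counts of the hydrolase classes below. The falls were in 4 cathepsins, 1 glycosidase and 2 lipid hydrolases, and both rises were in glycosidases. The median is not stable in sign, being 0.015 with scaling to total counts.

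The hydrolases with the most transcript per length were the cathepsins Ctsb, Ctsd, Ctsz and Ctsc, while Ctsh (206 FPKM) and Ctsl (55.3 FPKM) lay below Hexa, Lipa, Man2b1 and Ctsa. Ctsb (ENSMUSG00000021939, chromosome 14, 63122462 to 63145923, GRCm38), which encodes the lysosomal cysteine protease cathepsin B, averaged 2086 FPKM over the 6 libraries and ranked 14 among protein-coding genes. Ctsb was read at 12172, 12246 and 12462 CPM in Trem2_KO, against 13262, 13334 and 12549 CPM in WT. All 3 Trem2_KO libraries lay below all 3 WT libraries, although WT replicate 3 was only just above the highest Trem2_KO library. The mean was 12294 ± 150.3 CPM in Trem2_KO and 13048 ± 434 CPM in WT (SD, n = 3 each), a log2 change of -0.09 (SE 0.0213, edgeR adjusted p = 0.00126), and limma-voom gave an adjusted p of 0.0968. Ctsd (ENSMUSG00000007891, chromosome 7, 142375911 to 142388038), which encodes the aspartic protease cathepsin D, had 2156, 2187 and 2263 CPM in Trem2_KO and 2320.1, 2364 and 2260.2 CPM in WT. The groups overlapped, since Trem2_KO replicate 3 stood above WT replicate 3. Its log2 change was -0.07 (SE 0.0240, edgeR adjusted p = 0.0174) and the call did not hold without Trem2_KO replicate 1 (adjusted p = 0.136), Trem2_KO replicate 2 (0.102), WT replicate 1 (0.0619) or WT replicate 2 (0.0933). Ctsz (ENSMUSG00000016256, chromosome 2, 174427493 to 174439039), which encodes the carboxypeptidase cathepsin Z, had 735, 722 and 688 CPM in Trem2_KO and 788, 838 and 757 CPM in WT. Its groups did not overlap, and the log2 change was -0.15 (SE 0.0309, edgeR adjusted p = 0.000241).

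Ctsh, an aminopeptidase, fell to a mean of 879 ± 27.3 CPM in Trem2_KO, against 979 ± 28.2 CPM in WT, a log2 change of -0.16 (adjusted p = 6.6e-06). Ctsc, the dipeptidyl peptidase that activates serine proteases of granules, was not called, at 2553 ± 23.1 CPM in Trem2_KO and 2628 ± 29.4 CPM in WT, and neither was Ctsl, with a log2 change of 0.04. No cathepsin was called higher, 0 of the 6 rose at an unadjusted p under 0.05, and DESeq2 and limma-voom also called 0 higher. The serine peptidases Ctsa and Tpp1 had log2 changes of 0.01 and 0.03, and neither was called in either direction by edgeR, DESeq2 or limma-voom, or at an unadjusted p under 0.05. Ctsa, of 4715 bases, shares 495 exon bases with Pltp on the other strand. Over the 6 libraries Pltp drew 168550 reads in all, against 136977 for Ctsa. Since the strand setting of the counting is unknown here, reads of such pairs cannot be told apart within the shared bases.

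Of the 7 glycosidases 2 rose and 1 fell. Gla (ENSMUSG00000031266, chromosome X, 134588149 to 134601125), whose promoter is shown above, was read at 30.7, 29.9 and 31.3 CPM in Trem2_KO, from 531, 493 and 532 reads, against 21.8, 20.7 and 19.5 CPM in WT, from 342, 325 and 306 reads. Each Trem2_KO library stood above each WT library, and the gap between the groups was wider than the spread within either. This was a 1.48-fold rise, a log2 change of 0.56 (SE 0.0748, edgeR adjusted p = 1.96e-08), and Gla was the least abundant of the 20 hydrolases per length, with 7.82 FPKM. Gusb, the beta-glucuronidase that degrades glycosaminoglycans, rose to 291 ± 2.07 CPM in Trem2_KO, against 260.3 ± 4.86 CPM in WT, a log2 change of 0.16 (adjusted p = 3.95e-05). Hexa, the alpha subunit of beta-hexosaminidase, which degrades the ganglioside GM2, was read at 703, 722 and 698 CPM in Trem2_KO, against 809, 837 and 779 CPM in WT. Its groups did not overlap, and its log2 change was -0.19 (SE 0.0273, edgeR adjusted p = 1.01e-07). The acid glucosidase Gaa, the beta-galactosidase Glb1, the mannosidase Man2b1 and the sialidase Neu1 were not called, with log2 changes between -0.02 and 0.02. Reads of Glb1 and of Tmppe, which shares exon bases with it on the same strand, cannot be told apart there.

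Of the 5 lipid and lipid-linked hydrolases 2 fell and none rose, with 0 higher at an unadjusted p under 0.05 and 0 by DESeq2 or limma-voom. Lipa, the lysosomal acid lipase that frees cholesterol and fatty acids from lipoprotein lipids, had 969.8, 968 and 979 CPM in Trem2_KO and 1035, 1040.5 and 1053 CPM in WT. Its groups did not overlap, and the log2 change was -0.10 (SE 0.0248, edgeR adjusted p = 0.00122). The acid ceramidase Asah1 had a log2 change of -0.07 (adjusted p = 0.0422), and its call was lost on leaving out any 1 library other than WT replicate 3, with adjusted p between 0.0701 and 0.183. The sphingomyelinase Smpd1 was not called at a log2 change of -0.18 (adjusted p = 0.0661), and without Trem2_KO replicate 2 it was called (adjusted p = 0.0383). The phospholipase D family member Pld3 and the thioesterase Ppt1 had log2 changes of -0.01 and 0.01. Ppt1, of 3674 bases, shares 129 exon bases on the other strand with Cap1, which drew 61297 reads in all against 16200.

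**Figure D3:**
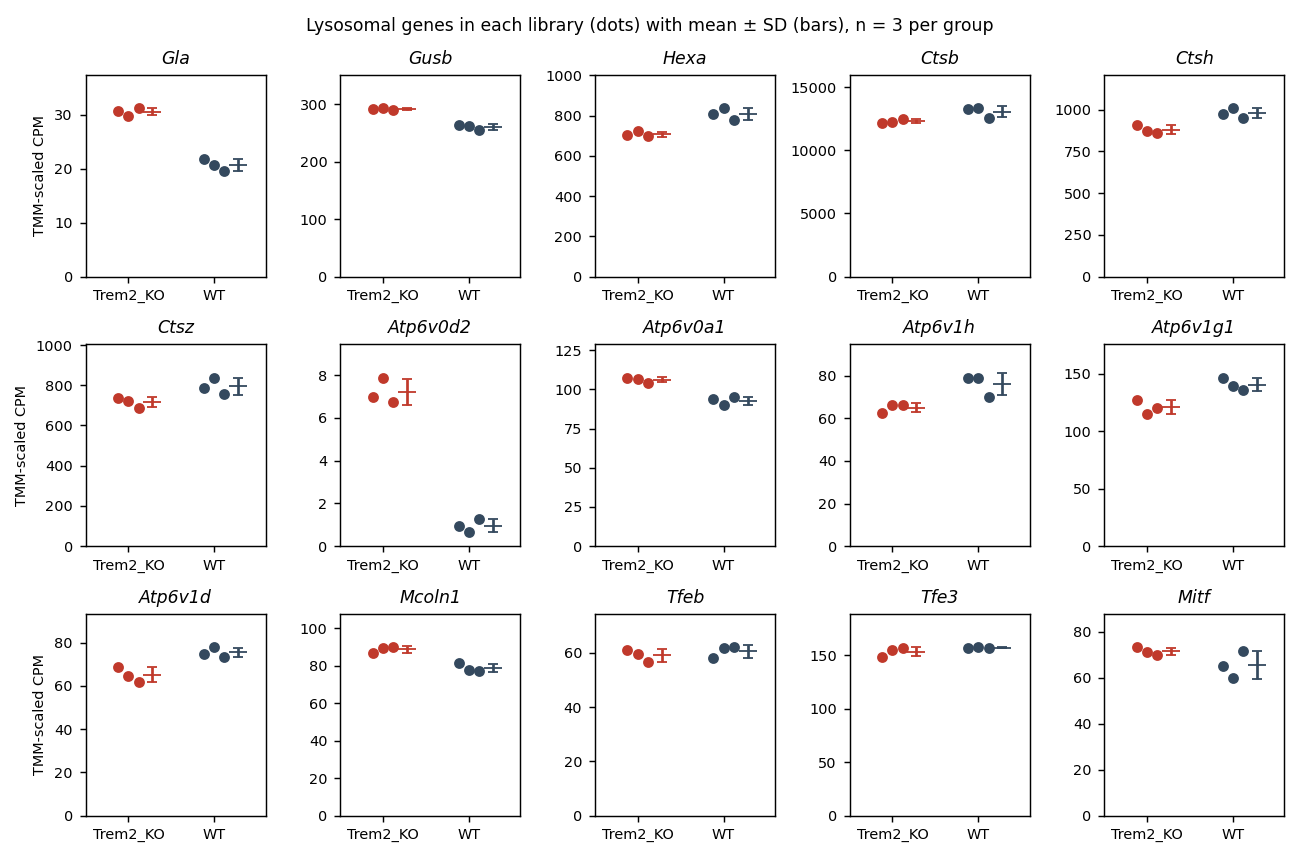
TMM-scaled CPM of 15 lysosomal genes in each library, with Trem2_KO (red) left of WT (blue); dots are libraries and bars the mean ± SD (n = 3 per group), and every axis starts at 0. For Gla and Atp6v0d2 the 3 Trem2_KO dots lie well above the 3 WT dots, whereas for Tfeb and Mitf the dots overlap.

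Of the 10 membrane and cofactor proteins, 1 rose, 4 fell and 5 were not called, and the groups did not overlap for 8. Among all genes of at least 100 CPM 32.0% were called lower, and among all tested genes 41.6% did not overlap between the groups. Psap, the precursor of the saposins that present sphingolipids to their hydrolases, was the most abundant transcript of the whole set per length, at 2376 FPKM, and ranked 11 among protein-coding genes. Psap was not called, at 6479 ± 160.2 CPM in Trem2_KO and 6612 ± 141 CPM in WT. Grn, which encodes progranulin, the lumenal precursor of the granulins, fell to 2963 ± 29.2 CPM in Trem2_KO, against 3179 ± 81.4 CPM in WT, a log2 change of -0.10 (adjusted p = 0.000436). Lamp1, whose promoter carries 4 E-boxes, had 1602, 1709.6 and 1714 CPM in Trem2_KO and 1792, 1804 and 1796 CPM in WT. Every Trem2_KO library lay below every WT library, but Trem2_KO replicate 1 lay well below the other two. The log2 change of Lamp1 was -0.10 (SE 0.0249, edgeR adjusted p = 0.00113), and without Trem2_KO replicate 1 it was -0.07 and not called (adjusted p = 0.0553). Npc2, the lumenal protein that hands cholesterol to NPC1, had a log2 change of -0.13 (adjusted p = 0.000181), whereas the membrane exporter Npc1 was not called at 0.08 (adjusted p = 0.0631). Scarb2, the receptor that carries glucocerebrosidase to the lysosome, had a log2 change of -0.09 (adjusted p = 0.00933), and was not called without Trem2_KO replicate 2 (adjusted p = 0.0895) or WT replicate 1 (0.0737).

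Mcoln1, the lysosomal calcium channel, was the only gene of this class that was called higher. It had 86.8, 89.6 and 89.9 CPM in Trem2_KO and 81.4, 77.7 and 77.3 CPM in WT, so that the groups did not overlap, and its log2 change was 0.17 (SE 0.0457, edgeR adjusted p = 0.00263). Cln3, Lamp2 and Laptm5 were not called, with log2 changes of 0.09, -0.04 and 0.03. Cln3 shares exon bases on the other strand with Apobr, and Npc1 with Rmc1.

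The proton pump held the largest change of the set, in a minor paralogue, while several V1 subunits fell slightly. Of the 25 pump genes 19 were tested, of which 2 were higher, 6 were lower and 11 were not called, with a median log2 change of -0.04. That is 10.5% higher and 31.6% lower, against 15.3% and 15.1% of all tested genes and 27.0% and 32.0% of those of at least 100 CPM. Of the untested pump genes, Atp6v0a4, Atp6v1e2, Atp6v1g3 and Atp6ap1l had 0 reads in all 6 libraries, Atp6v1b1 had 2 reads in WT replicates 1 and 3 only, and Atp6v1c2 had at most 4 reads in any library. These are paralogues known from kidney, testis and other tissues. Atp6v1fnb, outside the pump, had 4 reads in Trem2_KO replicate 2 and 0 elsewhere.

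Atp6v0d2 (ENSMUSG00000028238, chromosome 4, 19876841 to 19922605), the d2 form of the V0 stalk subunit, known from osteoclasts, was read at 6.99, 7.88 and 6.76 CPM in Trem2_KO, from 121, 130 and 115 reads, against 0.957, 0.638 and 1.28 CPM in WT, from 15, 10 and 20 reads. The lowest Trem2_KO library lay several times above the highest WT library. The rise was 7.47-fold, a log2 change of 2.90 (SE 0.222, edgeR adjusted p = 7.17e-16). Its widely expressed paralogue Atp6v0d1 was far more abundant, at 74.9 FPKM against 1.5 FPKM for Atp6v0d2. Of the summed FPKM of both d forms, Atp6v0d2 held 3.34%, 3.98% and 3.29% in the Trem2_KO libraries and 0.463%, 0.293% and 0.601% in the WT libraries. The sum itself was 74.8 ± 2.08 FPKM in Trem2_KO and 77.9 ± 2.08 FPKM in WT. Atp6v0d1 had a log2 change of -0.10 (adjusted p = 0.0419), a call lost without Trem2_KO replicate 2 (adjusted p = 0.235), Trem2_KO replicate 3 (0.0554), WT replicate 2 (0.163) or WT replicate 3 (0.0565).

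Of the 9 V0 genes, 8 were tested, and the second that rose was Atp6v0a1, one of the forms of the large membrane subunit a that sets where the pump is placed. Atp6v0a1 had 107, 107 and 104 CPM in Trem2_KO and 93.5, 89.8 and 94.9 CPM in WT, with no overlap, and a log2 change of 0.20 (SE 0.0426, edgeR adjusted p = 0.000268). The a3 form, encoded by Tcirg1, lies outside the pump's naming pattern but was the main form in these cells, with 84.3%, 84.3% and 84.5% of the summed FPKM of the a subunits in Trem2_KO and 83.0%, 84.5% and 83.2% in WT. Tcirg1 had 653, 650.3 and 656 CPM in Trem2_KO and 571, 589 and 571 CPM in WT. All 3 Trem2_KO libraries lay above all 3 WT libraries, and the log2 change was 0.18 (SE 0.0268, edgeR adjusted p = 3.73e-07). The summed FPKM of the a subunits was 172 ± 0.482 in Trem2_KO and 154 ± 1.32 in WT. The share of Atp6v0a1 in that sum was 9.17% to 9.45% in Trem2_KO and 8.78% to 9.43% in WT, so the shares overlapped. The proton-binding ring subunits Atp6v0b and Atp6v0c, the small subunit Atp6v0e and the a2 form Atp6v0a2 were not called, with log2 changes between -0.07 and -0.04, and Atp6v0c and Atp6v0e were called lower without Trem2_KO replicate 3 (adjusted p = 0.0143 and 0.0301). Atp6v0e2 had 8 to 13 reads per library in Trem2_KO and 13 to 17 in WT, a log2 change of -0.61 that was not called (adjusted p = 0.283).

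Of the 13 V1 genes, 9 were tested, 5 fell and 0 rose (0 also at an unadjusted p under 0.05, by DESeq2 and by limma-voom), with a median log2 change of -0.14. The falls are 55.6% of the tested V1 genes, against 15.1% of all tested genes and 32.0% of genes of at least 100 CPM. Not all tested V1 genes reach 100 CPM, and Atp6v1h and Atp6v1d among the falls do not. With so few genes the difference from these shares was not tested. The 5 encode subunits D and F of the rotating stalk, E and G of the peripheral stalks, and the regulatory subunit H. Atp6v1g1, the peripheral stalk subunit G1, was read at 127, 115 and 119.9 CPM in Trem2_KO, against 146, 139 and 135 CPM in WT. Its groups did not overlap, and its log2 change was -0.22 (SE 0.0409, edgeR adjusted p = 3.32e-05). Atp6v1h, the regulatory subunit H, had 62.8, 66.5 and 66.2 CPM in Trem2_KO and 79.1, 79.1 and 70.1 CPM in WT, and Atp6v1d, the rotor subunit D, had 68.6, 64.7 and 61.8 CPM in Trem2_KO and 74.9, 77.8 and 73.5 CPM in WT. Both were separated between the groups, with log2 changes of -0.22 (adjusted p = 0.000482) for Atp6v1h and -0.21 (adjusted p = 0.000708) for Atp6v1d. The rotor subunit Atp6v1f fell by 0.18 on the log2 scale (adjusted p = 0.000176) and the stalk subunit Atp6v1e1 fell by 0.14 (adjusted p = 0.00343). The main genes of the ATP-hydrolysing head were not called: Atp6v1a, the catalytic subunit A, averaged 279.5 ± 5.70 CPM in Trem2_KO and 272 ± 11.9 CPM in WT, and Atp6v1b2, the B subunit, averaged 419 ± 8.59 CPM in Trem2_KO and 427 ± 2.83 CPM in WT. Atp6v1c1 and Atp6v1g2 were not called, with log2 changes of 0.06 and 0.26, and Atp6v1g2 shares exon bases with Nfkbil1. The summed level of V1 was 1288, 1275 and 1294 CPM in Trem2_KO and 1368, 1361 and 1330.2 CPM in WT, without overlap, whereas the V0 sum was 840.4, 837 and 865 CPM in Trem2_KO and 862, 859.9 and 859 CPM in WT, with overlap. As a percent of protein-coding FPKM, V1 was again lower without overlap (0.140% to 0.144% in Trem2_KO and 0.145% to 0.148% in WT). V0 was higher without overlap by that percent (0.104% to 0.108% in Trem2_KO and 0.101% to 0.102% in WT). The summed FPKM of V0 itself was lower in Trem2_KO without overlap, at 305, 301 and 311 against 314, 318 and 313 in WT. The direction of these V0 sums thus depended on the scale, whereas V1 was lower on each. The V0 sums leave out Tcirg1, which lies outside the naming pattern and was called higher, so they do not describe the whole sector. V0 sums with Tcirg1 were not computed. The accessory proteins Atp6ap1 and Atp6ap2, which help to assemble the pump, had log2 changes of -0.01 and -0.03 and were not called by edgeR, DESeq2 or limma-voom, or at an unadjusted p under 0.05.

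The TFEB family was not called in either direction by edgeR. Tfeb (ENSMUSG00000023990, chromosome 17, 47737030 to 47792419) was read at 61.3, 59.6 and 56.6 CPM in Trem2_KO and at 58.0, 61.7 and 62.1 CPM in WT. The groups overlapped, and the log2 change was -0.03 (SE 0.0527, edgeR adjusted p = 0.667). Tfeb lies 0.554 Mb from Trem2 on the same chromosome, nearer than any other gene of the set. Tfe3 (ENSMUSG00000000134, chromosome X, 7762560 to 7775202) had 149, 155 and 157 CPM in Trem2_KO and 157, 158 and 157 CPM in WT. The WT libraries were nearly alike and Trem2_KO replicate 1 was the lowest, with a log2 change of -0.03 (SE 0.0366, edgeR adjusted p = 0.522). The groups of Tfe3 did not overlap, but only just. The highest Trem2_KO library was at 156.77 CPM and the lowest WT library at 156.84 CPM. With the gene length trend removed, as described below, Tfe3 was called lower (edgeR adjusted p = 0.0138). Mitf (ENSMUSG00000035158, chromosome 6, 97807052 to 98021349) had 73.3, 71.1 and 70.0 CPM in Trem2_KO and 65.2, 59.8 and 71.8 CPM in WT. WT replicate 3 lay within the range of the Trem2_KO libraries, and the log2 change was 0.12 (SE 0.0534, edgeR adjusted p = 0.0747). Mitf was the 1 member at an unadjusted p under 0.05, DESeq2 and limma-voom called 0 of the 3, and without WT replicate 3 Mitf was called at a log2 change of 0.19 (adjusted p = 0.00785).

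Set side by side, the hydrolases had 2 of 20 tested genes higher and 7 lower, the pump 2 of 19 higher and 6 lower, and the TFEB family 0 of 3 in either direction. The lower shares, 35% of the hydrolases and 31.6% of the pump, lie near the 32.0% of all genes of at least 100 CPM, and above the 15.1% of all tested genes. The higher shares, 10% and 10.5%, lie below the 27.0% and 15.3% of those backgrounds. Both classes include genes under 100 CPM, such as Gla and Atp6v1h, so level is not matched in the comparison with abundant genes. The median log2 changes of hydrolases, pump and TFEB family were -0.01, -0.04 and -0.03, against -0.01 for all tested genes. Without Atp6v0d2 the pump's median was -0.05. The difference between these classes was not tested. The summed level of the hydrolases was 27039, 27149 and 27492 CPM in Trem2_KO and 28681, 28956 and 27728 CPM in WT. Ctsb alone averaged 12294 CPM in Trem2_KO and 13048 CPM in WT, so the hydrolase sum rests largely on that gene. The pump's sum was 2747, 2728 and 2798 CPM in Trem2_KO and 2866, 2853 and 2814 CPM in WT, and both sums were without overlap on this scale. The pump's sums and shares leave out Tcirg1, the main form of subunit a here, which was called higher. They therefore do not give the level of the whole pump. As a percent of all counts and as a percent of protein-coding FPKM, the groups overlapped for both classes: the pump took 0.322%, 0.317% and 0.327% of protein-coding FPKM in Trem2_KO and 0.321%, 0.316% and 0.318% in WT. The sum of the TFEB family was 283, 286 and 283 CPM in Trem2_KO and 280.5, 279 and 291 CPM in WT, with overlap, and its share of protein-coding FPKM was 0.0132% to 0.0133% in Trem2_KO and 0.0119% to 0.0128% in WT, without overlap. The whole set took 4.58%, 4.61% and 4.63% of all counts in the Trem2_KO libraries and 4.74%, 4.74% and 4.59% in the WT libraries. As a share of summed protein-coding FPKM it took 4.01%, 4.04% and 4.06% in Trem2_KO and 4.002%, 3.98% and 3.92% in WT. The 2 shares have different denominators, all counts and protein-coding FPKM, and they point in different directions, while the summed FPKM of the set was lower in Trem2_KO, at 11647, 11752 and 11714 against 12344, 12471 and 11979 in WT.

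**Figure D4:**
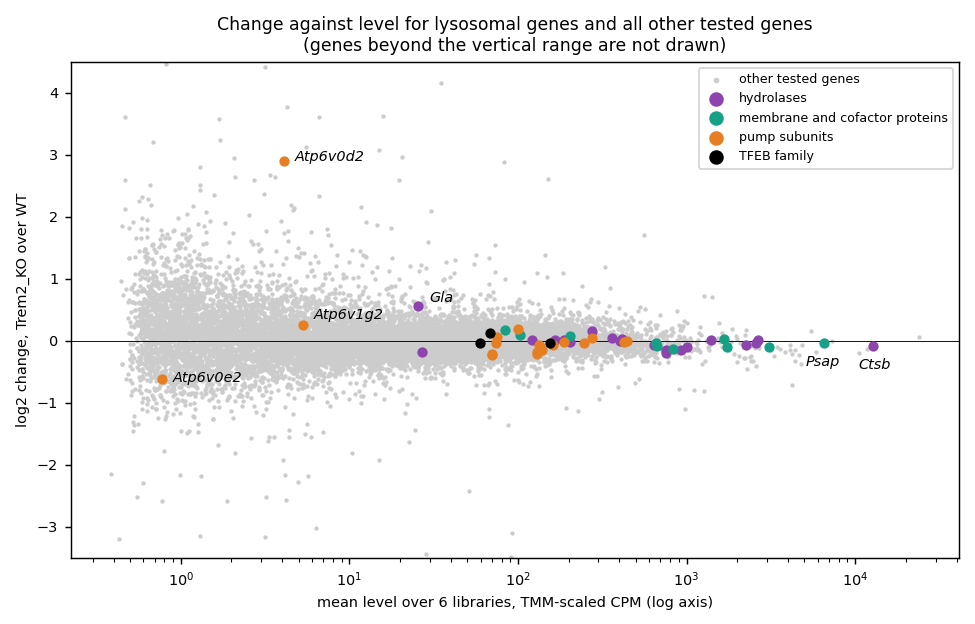
Log2 change, Trem2_KO over WT, against the mean TMM-scaled CPM over 6 libraries (log axis) for the lysosomal genes, coloured by class, and for other tested genes in grey. Most lysosomal genes lie above 100 CPM and close to 0, while Atp6v0d2 at 2.90 and Gla at 0.56 are less abundant.

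Gene length moved with the change in these libraries. With all tested genes split into 5 equal groups by the deposited gene length, the median log2 change was -0.09, -0.07, -0.02, 0.02 and 0.09 from the shortest to the longest. Lysosomal genes called lower had a median length of 3390 bases, and the other tested members 4715 bases. With the length trend removed from the fit, 7 of the 22 called members were no longer called, all of them falls: Ctsd, Ctsz, Asah1, Lipa, Lamp1, Atp6v0d1 and Atp6v1f. Ctsc, Lamp2 and Tfe3 were then called lower, with log2 changes of -0.07, -0.12 and -0.11 (adjusted p = 0.00903, 0.000133 and 0.0138). The other called members remained so: the log2 change was 0.60 for Gla, -0.11 for Hexa, -0.31 for Atp6v1h, -0.21 for Atp6v1d, -0.11 for Atp6v1g1 and 0.16 for Atp6v0a1. Why the change moved with length was not tested.

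**Figure D5:**
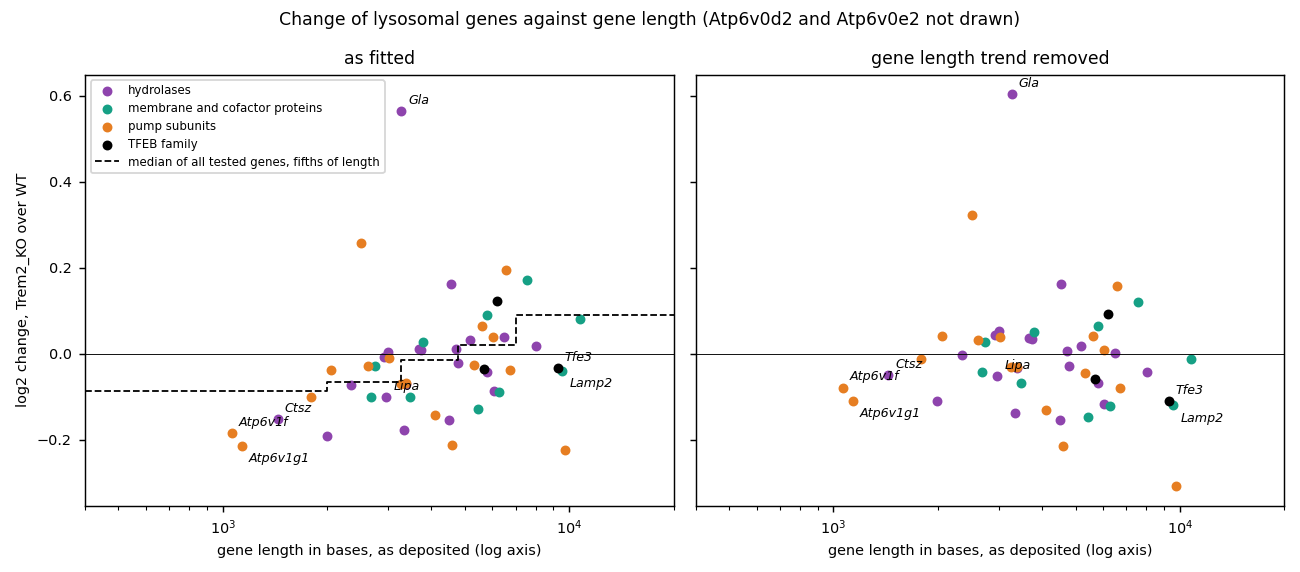
Log2 change, Trem2_KO over WT, against deposited gene length in bases (log axis) for the lysosomal genes, as fitted on the left and with the length trend removed on the right; the dashed line on the left is the median over all tested genes in each of 5 length groups, and Atp6v0d2 and Atp6v0e2 are not drawn. Short genes such as Atp6v1f and Ctsz lie nearer to 0 on the right, while Gla is at 0.56 on the left and 0.60 on the right.

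Other genes of the lysosomal pathway likewise included falls of abundant transcripts, not all of them as small as those of the set, and large rises of a few scarce ones. Of 31 other hydrolases 3 were higher (9.68%) and 9 lower (29.0%), with a median log2 change of -0.04. Over all tested genes 15.3% were called higher and 15.1% lower, and among those of at least 100 CPM 27.0% and 32.0%. Lyz2, the macrophage lysozyme, fell to 3874 ± 53.2 CPM in Trem2_KO, against 4864 ± 73.5 CPM in WT, and the lysosomal phospholipase Pla2g15 fell by 0.18 on the log2 scale. Ctsk, the bone-resorbing cathepsin K, had a log2 change of 1.73, and Gm2a, the GM2 activator protein that works with the hexosaminidase, one of 0.13. Of 23 tested further membrane proteins 5 were higher and 3 lower. Gpnmb, a glycoprotein of macrophage lysosomes, averaged 66.1 ± 0.439 CPM in Trem2_KO and 3.68 ± 0.352 CPM in WT, and the tetraspanin Cd63 averaged 29.2 ± 2.43 CPM in Trem2_KO and 2.36 ± 0.419 CPM in WT. Cd68 and Cd164, abundant sialomucins of the lysosomal membrane, fell by 0.13 and 0.12 on the log2 scale. Of 11 tested genes of the a3 subunit and of pump assembly, 5 were higher, Tcirg1 and the assembly factor Dmxl1 (log2 change 0.20) among them, and 0 were lower, with 2 lower at an unadjusted p under 0.05 and 0 by DESeq2 or limma-voom.

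Of 14 genes of hydrolase sorting 2 were higher and 2 lower (14.3% each), near the 15.3% and 15.1% of all tested genes. The sorting receptor Sort1 averaged 21.7 ± 1.83 CPM in Trem2_KO and 12.04 ± 1.56 CPM in WT, a log2 change of 0.85, and the mannose 6-phosphate receptor Igf2r 110.0 ± 3.65 CPM in Trem2_KO and 88.2 ± 4.85 CPM in WT, a log2 change of 0.32. The retromer subunit Vps35 fell by 0.12 and Nagpa, which uncovers the mannose 6-phosphate tag, fell by 0.14 on the log2 scale. Of 27 tested regulators of the TFEB family 5 were higher (18.5%) and 6 lower (22.2%), not far from those shares. The folliculin partners Fnip1 and Fnip2 had log2 changes of 0.17 and 0.19, while the 14-3-3 protein Ywhaz and the Ragulator subunit Lamtor2 had changes of -0.16 and -0.29. Of 24 tested autophagy genes of the TFEB network 4 were higher (16.7%) and 6 lower (25.0%). Uvrag and Ulk1, which act in autophagosome formation and its start, had log2 changes of 0.21 and 0.20. Map1lc3a and Gabarap, which coat the autophagosome membrane, had changes of -0.22 and -0.10. All genes named from these lists were called.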

How the data were processed

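RNA-seq values of 6 libraries of sorted Kupffer cells were analysed as deposited. Per the labels' protocols, RNA was taken with Trizol and 1 ug of total RNA entered an Illumina TruSeq preparation. Builds GRCm38 and mm10 and the tools featureCounts 1.5.0-p3, HISAT2 2.0.5 and DESeq2 1.16.1 are listed in the submitters' processing notes, without strand or multi-mapping settings, which the sources used here do not give. The authors deposited whole-number read counts per gene, not normalized, and FPKM values, which scale the count by gene length and library. All 6 columns matched a labelled sample and 0 others were present.

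Counts were tested with edgeR 4.0.16 in R 4.3.3: filterByExpr by group, TMM scaling, robust dispersion and quasi-likelihood fit, genotype as the only term, Benjamini-Hochberg adjustment over 13776 genes. Standard errors were derived from the quasi-F statistic. Start and end of 57 of 60 genes (the set and Trem2) equalled GENCODE vM21, from which exon overlaps were taken. The fit was tested on simulated data.

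The members, the roles, the pathway and marker lists and the tests were chosen with earlier results of these data known. Full values are given for Trem2, members called with an absolute log2 change of at least 0.25, the TFEB family and the 3 hydrolases with the highest FPKM. From each pathway list the 2 called genes of smallest p per direction are named, most with their log2 change alone. Library values of further members were added after their values were seen. Alternatives were DESeq2 1.42.0, limma-voom (limma 3.58.1), limma on log2 FPKM with pseudocounts of 1 and 0.1, size factors or total counts in place of TMM, no filter or at least 5 CPM in 3 libraries, protein-coding genes only, removal of a gene length trend, a biological coefficient of variation fixed at 0.2, leaving out each library in turn, and a block for the replicate number.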

Additional observations from a re-analysis of the deposited data

How the results depend on the processing

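Neither Trem2 nor any called member changed direction under any of the 19 alternatives. When every gene was given a biological coefficient of variation of 0.2, 371 genes were called in place of 4181; 1 member was higher (Atp6v0d2, so pump 1 and hydrolases 0 higher) and 0 members were lower, 0 of them hydrolases and 0 pump genes. Scaling to total counts gave 8 members higher, with Mitf, Npc1 and Cln3 added, so that 1 TFEB family gene was called, and lost the calls of Ctsd, Asah1, Scarb2 and Atp6v0d1. The same 4 calls were lost with log2 FPKM at either pseudocount. A filter of at least 5 CPM in 3 libraries also gave 1 TFEB family gene (Mitf) and lost Asah1 and Atp6v0d1. Removal of the length trend gave 1 TFEB family gene (Tfe3) and 4 hydrolases lower, and so did the length trend with the replicate block. The median log2 change of hydrolases, -0.015 as reported, was 0.0152 with total counts, -0.0281 with no filter and -0.00332 with the stricter filter. DESeq2 called 3096 genes and lost the calls of Asah1 and Atp6v0d1.

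Leaving out 1 library gave 3377 to 3909 called genes, 5 to 6 members higher, 14 to 17 lower, 2 hydrolases higher and 5 to 7 lower, 2 pump genes higher and 5 to 7 lower, and 0 to 1 TFEB family genes; the median log2 change of hydrolases was -0.025 to -0.0102 and the median log2 change of pump subunits -0.07 to -0.04. Trem2 stayed between -2.47 and -2.34.

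Replicate numbers did not pair the samples: deviations of same-numbered libraries had correlations of -0.00787, 0.00313 and 0.0361. With the number as a block, 4230 genes were called, and 0 calls of members were lost or gained.

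Limits: 3 libraries per group, a low spread that lets changes of a few percent be called, no strand setting, and a length trend of unmeasured origin. The 7 untested members lie at or near the limit that a count of 0 allows, so a change there was not detectable at this depth.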
